A study of Mus musculus with 3 samples.

Results

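The ETS family of transcription factors was examined through 10 genes listed for their role in endothelial identity: Ets1, Ets2, Fli1, Erg, Elk3, Etv6, Gabpa, Elf1, Elf2 and Elf4. They were found by symbol among the 39304 rows of the expression table, and all 10 were measured. Glomeruli, the capillary filters of the kidney, were taken from 1 male mouse, wild type, strain C57BL/6, at 8 weeks of age. Single cells, each captured in its own Fluidigm C1 well, were typed by marker qPCR. The cDNA of 15 mesangial cells, the contractile cells that support the capillary tuft, and of 15 endothelial cells, which line the capillaries, was pooled and split into 3 aliquots that were each made into a library. The aliquots form 1 group with no contrasting condition, so every SD below (n = 3) measures library construction and sequencing, and no value has a check across mice. The 2 cell types were mixed before sequencing, so which of them made a transcript cannot be told apart, nor can fewer expressing cells be told apart from less RNA per cell.

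ETS factors share a winged helix-turn-helix domain that reads the DNA core GGAA. Erg, Fli1 and Ets1 are known for keeping endothelial cells endothelial, through sites in the promoters and enhancers of genes such as the VEGF receptor Kdr and the junction cadherin Cdh5. Other members act as repressors (Etv6, Elk3), as widely used activators of housekeeping genes (Gabpa) or in blood and vessel cells (Elf1, Elf2, Elf4).

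The coding bases of the recognition helix, the part of the domain that enters the DNA groove, are shown for each member whatever its level. The stretch was placed by a search for a peptide pattern: arginine, alanine or glycine, leucine, arginine, any residue, tyrosine, tyrosine. Some of the shared bases were therefore fixed by the search, which also raises the identities between pairs. Each line holds 60 bases from GENCODE M21 transcripts on GRCm38, and capitals mark the 22 positions at which all 10 genes have the same base.
Ets1: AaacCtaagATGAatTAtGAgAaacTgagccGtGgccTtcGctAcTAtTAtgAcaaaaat
Ets2: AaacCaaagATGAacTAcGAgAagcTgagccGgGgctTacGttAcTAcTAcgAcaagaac
Fli1: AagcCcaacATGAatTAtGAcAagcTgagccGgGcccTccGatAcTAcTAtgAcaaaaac
Erg: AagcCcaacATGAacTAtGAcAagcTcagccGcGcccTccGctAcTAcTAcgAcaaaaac
Elk3: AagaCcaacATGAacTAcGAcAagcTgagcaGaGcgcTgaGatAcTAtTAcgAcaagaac
Etv6: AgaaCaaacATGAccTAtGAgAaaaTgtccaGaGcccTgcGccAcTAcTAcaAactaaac
Gabpa: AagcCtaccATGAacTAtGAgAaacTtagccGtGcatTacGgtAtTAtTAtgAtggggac
Elf1: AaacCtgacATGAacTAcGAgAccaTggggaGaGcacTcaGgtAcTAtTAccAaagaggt
Elf2: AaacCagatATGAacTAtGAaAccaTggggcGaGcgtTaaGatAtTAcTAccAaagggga
Elf4: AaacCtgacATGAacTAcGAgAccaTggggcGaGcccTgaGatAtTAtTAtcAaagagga

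Identity over these bases ranged from 55.0% (Ets1 and Elf2) to 91.7% (Fli1 and Erg) in the 45 pairs, with a median of 65.0%. Elf1 and Elf4 came next with 88.3%. The same pair held the longest exact run shared by any of the whole coding sequences, 36 bases, against a median of 12 bases. In Ets1, Ets2, Fli1 and Erg the stretch lay within the last exon of the transcript with the longest coding sequence, for Ets1 at chr9:32754243-32754302 (plus strand, exon 8 of 8). In Elf1, Elf2 and Elf4 it was split between exons 7 and 8 of 9, in Gabpa between exons 9 and 10 and in Elk3 between exons 2 and 3, while Etv6 held it within exon 7 of 8.

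Of the 10 factors 8 were detected, with a level of 1 FPKM or more (fragments per kilobase of the gene and per 1000000 library reads) in every aliquot. Of all rows 21.7% were detected by this rule, and of protein-coding genes 36.5%. Means of at least 10 FPKM were reached by 5 of the 10, against 24.8% of protein-coding genes, and means of at least 100 FPKM by 2, against 5.34%. The median of the 10 was 13.4 FPKM, with the 2 undetected factors included, beside 0 FPKM for all 21226 protein-coding genes and 20.97 FPKM for those detected.

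Ets1, the founding member of the family, had the highest level of the 10 genes. It lies on chromosome 9, 32636221 to 32757820 (GRCm38, plus strand; ENSMUSG00000032035), and had 498, 500 and 505 FPKM in aliquots 1, 2 and 3. The mean of 501 ± 3.44 FPKM lay above that of 98.3% of detected protein-coding genes and at rank 138 of all rows. The aliquots were nearly equal, with a coefficient of variation of 0.687% over 34496 reads.

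Fli1, an endothelial and blood cell factor, came second. It lies on the same chromosome, 32422204 to 32542861 (minus strand; ENSMUSG00000016087), and had 239, 217 and 207 FPKM, with a mean of 221 ± 16.2 FPKM that was above 94.0% of detected protein-coding genes. Aliquot 1 was the highest and aliquot 3 the lowest. Every value of Fli1 was below every value of Ets1, which was 2.27-fold higher on average.

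Ets1 and Fli1 are divergent neighbours, 93.4 kb apart with 0 protein-coding genes between them in the annotation. Ets2 and Erg form a second such pair on chromosome 16, with a gap of 115 kb that also holds 0 protein-coding genes. In each pair the Ets gene was the higher: on the log2(FPKM + 1) scale Ets1 exceeded Fli1 by 1.18 ± 0.11 and Ets2 exceeded Erg by 0.98 ± 0.09. The pair on chromosome 9 lay far above the pair on chromosome 16, with Ets1 27.8-fold above its paralog Ets2 and Fli1 25.4-fold above its paralog Erg. Gene length enters these ratios: with the longest annotated transcripts Ets2 was 1.24-fold above Erg, in place of 2.07-fold.

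Ets2, a factor that responds to growth factor signals, had 18.3, 17.7 and 18.1 FPKM in aliquots 1, 2 and 3 (mean 18.0 ± 0.294 FPKM; 95702075 to 95721051, plus strand). Erg, a defining endothelial factor, had 8.55, 8.11 and 9.43 FPKM (mean 8.70 ± 0.671 FPKM; 95359169 to 95586593, minus strand). The Erg values stood below all those of Ets2, and 29.0% of detected protein-coding genes were lower than Erg. Its level rests on 157, 170 and 208 reads.

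**Figure D1:**
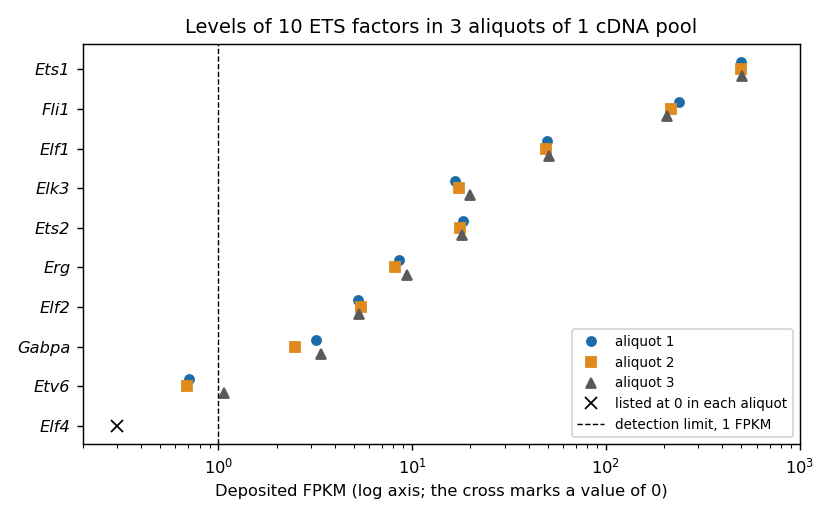
Deposited FPKM of each of the 10 ETS factors on a log axis, 1 point per aliquot, ordered by mean. The dashed line is the detection limit of 1 FPKM. Ets1 (501 FPKM) and Fli1 (221 FPKM) stand apart at the top, Etv6 straddles the limit and Elf4, drawn as a cross, is listed at 0.

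Among the Elf factors, the levels were widely separated. Elf1, a factor of blood and vessel cells on chromosome 14 (79481194 to 79582494, plus strand), had 49.8, 49.2 and 50.7 FPKM, and its mean of 49.9 ± 0.768 FPKM made it the third of the 10. Elf2, a close paralog on chromosome 3 (51252720 to 51340663, minus strand), had 5.24, 5.42 and 5.33 FPKM. Elf1 was 9.36-fold higher than Elf2 on average, or 25.3-fold with the longest transcript lengths, and the ranges of these paralogs did not overlap.

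Elf4, known from lymphocytes and natural killer cells, lies on chromosome X (48411046 to 48463132, minus strand) and was listed at 0 in each aliquot. For counting error only, 3 reads at its mean transcript length of 4458 bases would have read as 0.0736 FPKM in the shallowest library and 0.0613 FPKM in the deepest. The table also lists at 0 some genes that most cells use, such as mt-Nd4l of the respiratory chain, Cox20 of cytochrome oxidase assembly and the splicing factor Srsf4, so the zero is given as listed and not as absence. None of the annotated exon bases of Elf4 are shared with another gene.

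Elk3 belongs to the ternary complex factors, which bind DNA beside the serum response factor Srf, and it represses until phosphorylated. It had 16.7, 17.5 and 19.99 FPKM in aliquots 1, 2 and 3 (mean 18.1 ± 1.69 FPKM; chromosome 10, 93247414 to 93311135, minus strand). Its range overlapped that of Ets2, the only neighbours in the order of means whose ranges did so in the 9 comparisons of neighbours, and Elk3 was the higher of the pair in 1 of 3 aliquots, aliquot 3. Without that aliquot the mean of Ets2 was the higher and the ranges of this pair did not overlap. The closest neighbours whose ranges stayed apart were Erg and Elf2, with a log2 ratio of 0.61 ± 0.11.

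Both paralogs of Elk3 in the ternary complex group were also measured. Elk4 had 113, 116 and 106 FPKM (mean 112 ± 4.90 FPKM), 6.17-fold above Elk3 (3.995-fold with the longest transcript lengths), and Elk1 had 0.227, 0.132 and 0.252 FPKM, resting on 18 reads in all. Srf, the partner of these factors, was below the detection limit with 0.0316 ± 0.0113 FPKM, resting on 4 reads in all. Of 9 immediate early genes known as targets of Srf and these factors, 3 were detected: the phosphatase Dusp1 (148 ± 5.04 FPKM), the survival gene Mcl1 (48.4 ± 1.97 FPKM) and Egr1 (2.28 ± 0.170 FPKM). Fos, Junb, Egr2 and Egr3 were listed at 0 in each aliquot. The median of the list was 0.00810 FPKM. Of all 21226 protein-coding genes 36.5% were detected by the same rule, and 3 of 9 lay near that share. Their median was 0 FPKM, and 11566 of them were at 0 in each aliquot.

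Gabpa is the DNA-binding subunit of the complex GABP, whose other subunit comes from Gabpb1 or Gabpb2. It lies on chromosome 16 (84834925 to 84863779, plus strand) and had 3.19, 2.47 and 3.37 FPKM, a mean of 3.01 ± 0.474 FPKM from 52, 46 and 66 reads. Aliquot 2 was the lowest, below both others. Gabpb1 had 0.909, 1.24 and 1.47 FPKM, so aliquot 1 fell short of the detection limit, while Gabpb2 had 10.8 ± 0.491 FPKM, 3.59-fold above Gabpa.

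Etv6, a repressor needed for blood stem cells, was the member nearest to the detection limit. It lies on chromosome 6 (134035700 to 134270158, plus strand) and had 0.707, 0.693 and 1.07 FPKM in aliquots 1, 2 and 3, from 17, 19 and 31 reads. Aliquot 3 alone was above 1 FPKM. Just above the limit in every aliquot stood Gabpa, and Etv6 was the first below it. The corepressors that Etv6 and Elk3 are known to recruit were measured as well: Ncor1 (95.5 ± 3.58 FPKM), Sin3a (38.3 ± 0.218 FPKM), Ctbp1 (31.4 ± 1.97 FPKM) and Ctbp2 (29.7 ± 1.53 FPKM) were higher than Etv6 and Elk3, and Hdac3 had 1.77 ± 0.239 FPKM.

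The reads behind the values were recovered from the steps of the low values, which allowed the spread between aliquots to be set against counting error. A chi-square test with Benjamini-Hochberg adjustment was run over all 9120 genes with at least 30 reads, of which 1.09% were called at an adjusted p under 0.05. Of the 10 factors 9 were tested and 1 was called, Fli1 (4582, 4758 and 4771 reads, or 501, 456 and 435 per 1000000; chi-square test, adjusted p = 1.2e-08 over all genes). Its rate in aliquot 1 was 0.17 higher in log2 than in the other aliquots pooled. Over the alternatives the adjusted chi-square p of Fli1 ran from 3.9e-09 to 0.54, the latter without aliquot 1, where the call ended (unadjusted p = 0.018).

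Aliquot 1 also differed in other genes. Of the 99 genes called, 66 were higher in aliquot 1 than in the others. Besides Fli1, 4 genes of the companion lists were called, and their log2 differences of aliquot 1 from the others were 0.17 for the mesangial factor Gata3, 0.05 for the mesangial marker Rgs5, 0.21 for the endothelial cadherin Cdh5 and -0.04 for the endothelial gene Emcn. Without aliquot 1 the chi-square test called 2 genes in all, and without aliquot 3 it called 65. What sets this library apart was not tested. Calls were also commoner among genes with more reads: in the class of 10000 to 50000 reads, which holds both Ets1 and Fli1, 6.97% were called.

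Elk3 had the next smallest p among the members (chi-square test, unadjusted p = 0.037), with an adjusted p of 0.40, and its 3 values were lowest in aliquot 1 and highest in aliquot 3. For Ets1 the adjusted chi-square p was 0.88, for Elf1 0.89, for Erg 0.77, for Gabpa 0.73, for Etv6 0.69 and for Ets2 and Elf2 0.99. Gabpa and Etv6 had the widest coefficients of variation of the detected or nearly detected members, 15.8% and 26.2%, at the smallest read numbers. The plot of reads by aliquot shows this widening of the intervals.

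**Figure D2:**
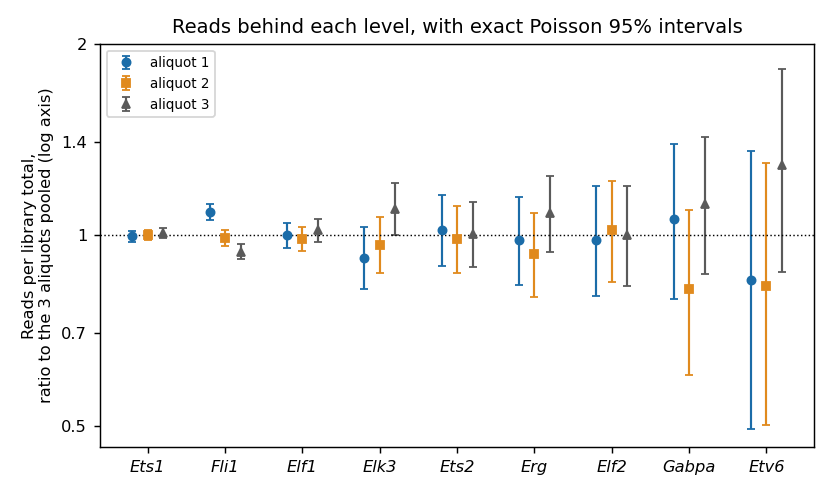
Reads per library total for 9 ETS factors, as the ratio to the 3 aliquots pooled (log axis), with exact Poisson 95% intervals for counting error only. Fli1 is the only gene whose intervals in aliquots 1 and 3 lie on opposite sides of 1, while the intervals of Gabpa and Etv6 are wide.

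FPKM of different genes can be compared only as far as the gene length behind them is known. The lengths implied by the recovered reads lay within 1 base of the mean length of the annotated transcripts for Ets1 (2253 bases), Fli1 (2098), Gabpa (1785) and Etv6 (2631). For the other 5 they differed from it by more, and Elf1 had the longest, 4043 bases. With the longest annotated transcript in its place, Ets1 had 222 ± 1.53 FPKM, Fli1 140 ± 10.2 FPKM and Elf1 47.6 ± 0.733 FPKM. Elk3 had 8.73 FPKM, Ets2 6.64 FPKM and Erg 5.38 FPKM, and Gabpa had 1.08 FPKM, which left 7 of the 10 detected. The order of the 10 means was the same with all 3 lengths, but the ranges of Elk3 and Ets2 overlapped only with the deposited values.

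**Figure D3:**
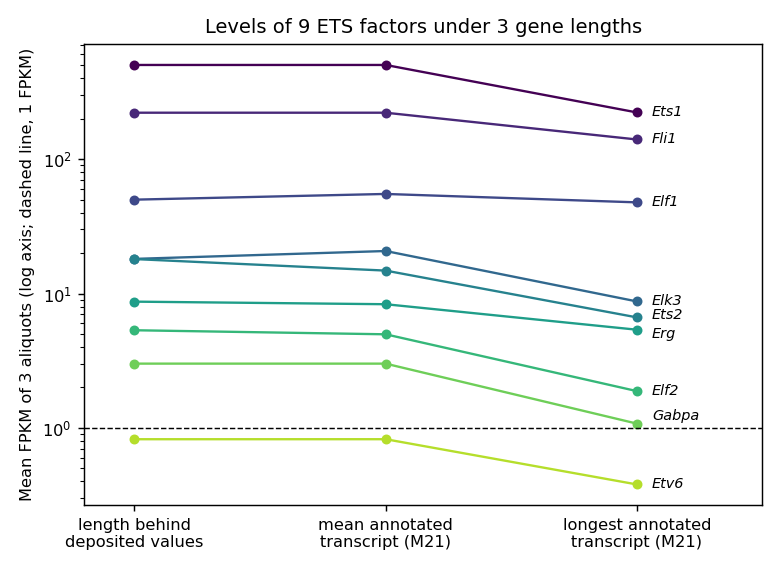
Mean FPKM of 9 ETS factors (log axis) with the length behind the deposited values, the mean annotated transcript length and the longest annotated transcript length. The lines do not cross, Ets1 drops from 501 to 222 FPKM and Elf1 only from 49.9 to 47.6 FPKM.

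Reads in exons that genes share could have been left out or assigned to either gene, since the sources used here do not give the counting settings. The share of annotated exon bases that overlap another gene was 6.98% for Gabpa (with Atp5j), 6.95% for Elk3 (with Cdk17), 4.85% for Elf1 (with Wbp4), 3.88% for Elf2 and 2.26% for Etv6. For Ets1, Ets2, Fli1, Erg and Elf4 it was 0.

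A further 16 ETS genes of the mouse were listed to place the 10 in their family. Of these, 4 were detected: beside Elk4 they were Etv5 (43.1 ± 3.26 FPKM) and Etv1 (15.4 ± 0.852 FPKM) of the PEA3 group and the repressor Etv3 (8.65 ± 0.188 FPKM). Etv5 had 39.9, 46.4 and 42.9 FPKM, with an adjusted chi-square p of 0.26. Spic, Elk1 and Erf were above 0 but below the limit, with 15, 18 and 4 reads. Of the 15 reads of Spic, a macrophage factor, 11 were in aliquot 3.

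The other 9 genes were listed at 0 in each aliquot. They include Etv2, the factor that starts endothelial development in the embryo, the blood factors Spi1 and Spib, the epithelial factors Elf3, Elf5, Ehf and Spdef, and Etv4 and Fev. The median of the 16 was 0 FPKM, as it was for all protein-coding genes. Of all 26 family genes 12 were detected, beside 36.5% of protein-coding genes. Zeros were common in the data, with 11566 of 21226 protein-coding genes at 0 in each aliquot.

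Summed over the 26 genes, the family had 1017, 1006 and 993 FPKM in aliquots 1, 2 and 3. Ets1 made up 49.8% ± 0.945 of this sum, Fli1 22.0% ± 1.35, Elk4 11.1% ± 0.405 and Elf1 4.96% ± 0.124. The 10 factors together made up 82.2%. With the longest transcript lengths the Ets1 share was 44.6%, that of Fli1 28.0% and that of Elf1 9.56%, while that of Elk4 was below that of Elf1.

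**Figure D4:**
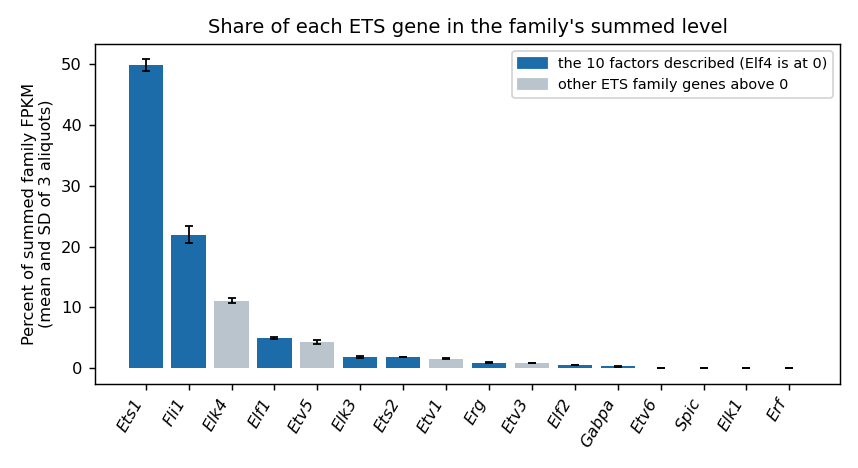
Share of each ETS gene above 0 in the summed FPKM of the family, mean and SD of 3 aliquots, with the 10 factors in blue and other family genes in grey. Ets1 and Fli1 together reach 71.8%, and Elk4 is the highest of the other genes.

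Genes that work with ETS factors in blood and vessel cells were set beside them. Of 19 partners and coregulators 16 were detected, beside 36.5% of protein-coding genes by the same rule. The list had a median of 15.9 FPKM, beside 0 FPKM for all protein-coding genes and 20.97 FPKM for those detected. Mapk3, a kinase that phosphorylates Ets1, Ets2 and the ternary complex factors, led the list with 128 ± 2.30 FPKM. The acetyltransferases Crebbp (17.6 ± 0.304 FPKM) and Ep300 (15.9 ± 0.246 FPKM) were also detected. Foxo1, a forkhead factor that binds beside ETS sites, had 25.6 ± 0.179 FPKM. Of the factors that bind with Fli1 and Erg in blood progenitors, Lmo2 had 25.8 ± 0.918 FPKM, Gata2 15.3 ± 0.488 FPKM, Runx1 4.05 ± 0.253 FPKM and Tal1 2.72 ± 0.221 FPKM, and Lyl1 was listed at 0.

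Of 20 endothelial genes known to carry ETS sites 16 were detected, beside 36.5% of protein-coding genes. The median of the list was 45.2 FPKM, beside 0 FPKM for all protein-coding genes and 20.97 FPKM for those detected. The highest were Emcn (1282 ± 22.1 FPKM) and Cd34 (353 ± 3.36 FPKM), which encode sialomucins, the adhesion molecule gene Icam2 (426 ± 4.92 FPKM) and Eng (286 ± 4.01 FPKM), a co-receptor for TGF-beta. Cldn5 was listed at 0, and Nos3, Vwf and Sox18 had means of 0.00931, 0.162 and 0.222 FPKM. The list was compiled from textbook knowledge and not from binding data of these cells, so the levels say nothing of which factor acts on which gene.

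Kdr, with 147, 138 and 145 FPKM in aliquots 1, 2 and 3, serves as an example of the DNA these factors read. The 250 bases before its start (chr5:75978456-75978705, minus strand, RefSeq on GRCm38.p6) hold the core GGAA on either strand 4 times. Capitals mark it as GGAA or its reverse complement TTCC.
Kdr: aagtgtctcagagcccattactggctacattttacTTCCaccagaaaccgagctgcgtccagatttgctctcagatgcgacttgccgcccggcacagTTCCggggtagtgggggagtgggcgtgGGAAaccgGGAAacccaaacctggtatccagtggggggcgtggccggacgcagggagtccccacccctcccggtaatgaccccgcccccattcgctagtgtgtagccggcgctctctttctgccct

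The core alone is common: 96.0% of all 32851 promoter windows of 300 bases hold GGAA on 1 strand or the other. The longer GGAAGT, searched on both strands and containing the core, was in 23.8% of all windows. Of the 20 listed endothelial genes the RefSeq table holds 10, and GGAAGT was in 6 of their 12 windows. These genes were listed for known ETS sites, so their share is no independent result. The other extended form searched, CCGGAA, which also contains the core, was in 1 of these 12 windows and in 14.9% of all windows, and GGAA itself was in 11 of the 12. Of the ETS factors themselves 8 had windows, and Ets1 and Fli1, the 2 highest, had none. Of the 13 windows 3 held GGAAGT: that of Gabpa and 1 each of Elf1 and Elf2. A match is a string of letters and no measure of binding.

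Markers of the cell types that the pool could hold were checked in the same libraries. All 8 mesangial markers were detected, from 70.2 to 2992 FPKM, beside 36.5% of all protein-coding genes detected. Of 8 podocyte markers 5 were detected, with Wt1 at 101 ± 3.18 FPKM, and their summed level ran from 240 to 255 FPKM over the aliquots. Podocytes were not among the pooled cells by the labels, and their part in the levels of ETS factors was not tested. The 10 leukocyte markers, relevant because Fli1, Elf1, Ets1 and Elf4 are also blood cell genes, had 0 detected members: 9, Ptprc, Csf1r and Cd3e among them, were listed at 0, and Lck had 0.191, 0.0839 and 0 FPKM. All 6 tubule markers were listed at 0. As for Elf4, the zeros of both lists are given as listed and not as absence. Of 21226 protein-coding genes 11566 were at 0 in each aliquot.

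**Figure D5:**
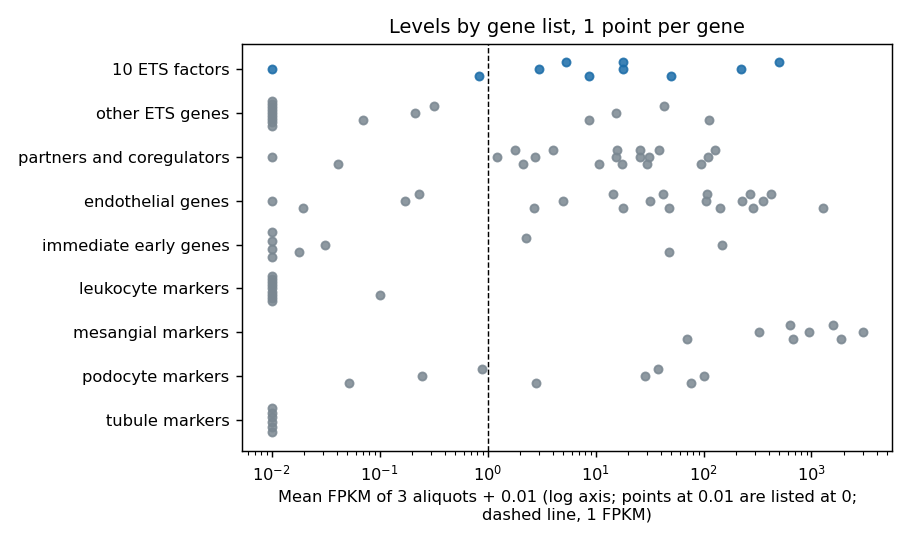
Mean FPKM of 3 aliquots plus 0.01 for every gene of each list (log axis), 1 point per gene, with the 10 ETS factors in blue and the detection limit as a dashed line. The ETS factors spread from 0 to 501 FPKM, the mesangial markers all lie above 70 FPKM and the leukocyte and tubule markers lie at or near 0.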

How the data were processed

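The 3 libraries are aliquots of 1 cDNA pool and were grouped by their titles. The authors deposited FPKM values; per the submitters' processing notes TopHat2 2.0.12, HTSeq 0.6.1 and GRCm38 were used, with settings, annotation release and gene length definition not given in the sources used here. Symbols matched 37607 of 39304 rows. Coordinates and lengths are from GENCODE M21.

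Library totals (9141422, 10427635 and 10976563 reads) were read from the most frequent value of 1 read under 0.5 FPKM, assuming the mean transcript length. Reads per gene followed from the smallest whole length that made all 3 values whole within 0.0001, or its multiple within 1 base of that mean, for 11142 of 11142 genes above 0. For Ets2, Elk3 and Elf2 a doubled length would also lie within the longest transcript. The recovery was tried on simulated data in which every gene had its mean annotated transcript length, rounded to a whole base. Of the 9 factors above 0 only 4 had that length within 1 base, so the trial did not cover the others. The chi-square test was tried on the simulated reads and totals themselves, not on recovered ones. The test treats reads of amplified cDNA as independent, so it and the intervals cover counting error only. Log2 ratios use log2(FPKM + 1). No count model was run.

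The 10 genes and all lists were chosen with earlier results of these data known. Named were all members and family genes, genes of pairs, and up to 4 highest detected and 4 lowest undetected genes of each list; Ctbp1, Ctbp2, Hdac3, Ep300, Crebbp, Foxo1, Lmo2, Gata2, Runx1, Tal1, Kdr, Cdh5, Lck, Srsf4, Cox20 and mt-Nd4l were named after their values were seen. A gene that the rule names is not reported here, though counts and medians include it. Likeness of pattern was not computed, since 3 aliquots of 1 pool hold no pattern of conditions. Protein sequence records were not used here, and the helix stretch was found in peptides translated from the coding bases. Python 3.11.15, numpy 2.4.6, scipy 1.17.1, pandas 2.3.3 and matplotlib 3.10.9 were used.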

Additional observations from a re-analysis of the deposited data

How the results depend on the processing

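Over 270 recomputed values, 216 kept their call, stayed within the spread between aliquots or, for counts, stayed within 1.5 times the count reported, 53 moved beyond these limits, and 1 call ended, that of the Fli1 spread without aliquot 1 (adjusted chi-square p = 0.54). No log2 ratio of a compared pair changed sign, but Ets2 passed Elk3 without aliquot 3, and with the longest lengths the Elk4 share (6.996%) lay below that of Elf1. At 5 FPKM 12 partners and 14 endothelial genes were detected, against 16 of each. The number of members detected was 7 to 9 over all limits, lengths and omissions. With the longest transcript lengths the family shares were 44.6% for Ets1, 28.0% for Fli1 and 9.56% for Elf1, and with mean lengths 5.53% for Elf1. Pairs of neighbours with overlapping ranges numbered 0 with either length, and 0 to 1 when 1 aliquot was left out. Genes called for spread numbered 2 to 98 when 1 aliquot was left out (2 without aliquot 1, 65 without aliquot 3), against 99. Without members under 0.1 FPKM the medians were 18.0 FPKM for the 10 factors, 12.01 for other family genes, 17.6 for partners, 76.7 for endothelial genes, 48.4 for immediate early genes and 28.4 for podocyte markers; leukocyte and tubule lists had no gene left. Doubling the reads of Ets2, Elk3 and Elf2, and the detection count with longest lengths, were chosen after seeing the data; the doubling moved Elk3 to an adjusted chi-square p of 0.087. No paired analysis was possible because the aliquots form 1 group. Depth limits Gabpa and Etv6 most.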
